A study of Homo sapiens with 6 samples.

Results

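The genes that encode the nuclear β-catenin complex were followed in ChIP-seq data of KDM3B, a histone demethylase, and of H3K9me2, the repressive histone mark that it removes. The complex was taken as 9 genes, namely β-catenin itself (CTNNB1), its DNA-binding partners of the TCF/LEF family (TCF7, TCF7L1, TCF7L2 and LEF1), the adaptors BCL9 and BCL9L, and the chromatin readers PYGO1 and PYGO2. They were chosen by name, and all 9 were found among the 20163 protein-coding genes (64449 genes in all) of the annotation, GENCODE release 44 on hg19. For each gene, the called regions within 5 kb of any annotated transcription start site (TSS) and in the gene body were taken with their position, their width and the score in the deposited lists. The stretches of 5 kb before and after all annotated TSSs of a gene, joined, are called its window here, and the window with the gene body is called its locus.

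The cells were HCT116, an established line of human colorectal cancer with an activating mutation in CTNNB1 that both populations carry. They expressed either a scramble shRNA (HCT116/Scrsh) or an shRNA that targets KDM3A as well as KDM3B (HCT116/ABsh-1). The sample labels describe the treatment as siRNA and the paper describes it as shRNA. KDM3B ChIP, H3K9me2 ChIP and input DNA were sequenced from each of the 2 populations, and the 2 inputs were not analysed here. There was 1 library per condition and no replicate, so all comparisons between HCT116/Scrsh and HCT116/ABsh-1 set single lists side by side, without a test or a p-value. The lists hold called regions without reads, which leaves the sequencing depth unknown and does not measure the depletion itself, and where a list lacks a region it was only not detectable at that depth.

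Over the whole genome, the KDM3B list held 17638 regions in HCT116/Scrsh compared with 8046 in HCT116/ABsh-1, and the H3K9me2 list 11645 and 88855. Every count below moves with these totals. Region edges lie on a grid of 100 bp, and between 41.3% and 72.9% of the regions of a list were a single 100-bp window. The meaning of the score is not named by the sources used here, so it is given with its percentile within its own list, whose median score was 24 and 17 for KDM3B and 13 and 31 for H3K9me2 in HCT116/Scrsh and HCT116/ABsh-1.

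In Wnt signalling, stabilised β-catenin enters the nucleus and binds TCF/LEF proteins, which hold the DNA but cannot activate transcription without it and otherwise recruit corepressors of the Groucho/TLE family. BCL9 or BCL9L binds β-catenin and at the same time a PYGO protein, whose PHD finger binds methylated histone H3. TCF7 encodes TCF-1, TCF7L1 encodes TCF-3 and TCF7L2 encodes TCF-4, the main family member in the intestinal epithelium, and TCF7 and LEF1 are themselves known as Wnt target genes. H3K9me2 is found at silent genes, and demethylases of the KDM3 family remove it.

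The sequences of some of the regions described below are given first, read from hg19 on the strand of the gene and 5′ to 3′. In each, capitals mark a match to the TCF/LEF core (CTTTGAA or CTTTGAT or CTTTGTA or CTTTGTT) or to the AP-1 motif (TGANTCA), both searched on both strands. No match of one motif overlaps a match of the other in these sequences. A match is a description of the letters and not a binding site. The KDM3B regions with the highest scores at these genes lay in BCL9L, over coding exon 5 and intron 5, and in intron 5 of TCF7L2, and up to 300 bases from the middle of some of them are shown. The stretch printed for BCL9L starts in the last bases of coding exon 5 and is otherwise intron 5. For the region of TCF7L2 that was also called in HCT116/ABsh-1, the 200 bases of that call are shown.
BCL9L, chr11:118777901-118778200, minus strand: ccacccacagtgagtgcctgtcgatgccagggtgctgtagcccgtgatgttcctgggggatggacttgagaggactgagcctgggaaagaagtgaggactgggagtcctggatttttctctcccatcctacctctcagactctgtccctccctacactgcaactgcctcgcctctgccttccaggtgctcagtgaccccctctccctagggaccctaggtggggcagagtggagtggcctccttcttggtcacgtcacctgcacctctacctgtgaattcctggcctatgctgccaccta
TCF7L2, chr10:114847101-114847300, plus strand: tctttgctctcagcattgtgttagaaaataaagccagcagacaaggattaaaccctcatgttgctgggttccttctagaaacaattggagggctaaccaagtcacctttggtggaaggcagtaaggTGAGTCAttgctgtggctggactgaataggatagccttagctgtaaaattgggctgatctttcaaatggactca
TCF7L2, chr10:114853251-114853550, plus strand: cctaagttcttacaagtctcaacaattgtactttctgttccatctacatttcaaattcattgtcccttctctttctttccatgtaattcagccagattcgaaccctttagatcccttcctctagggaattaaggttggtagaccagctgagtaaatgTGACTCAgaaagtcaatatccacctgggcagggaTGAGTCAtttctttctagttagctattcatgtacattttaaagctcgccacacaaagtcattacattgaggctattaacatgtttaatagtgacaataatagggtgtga

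Both KDM3B regions at BCL9 are shown because they had low scores and because of what they hold, a run of GA and GT dinucleotides in the region just upstream of the gene and a TCF/LEF core in the region of intron 1.
BCL9, chr1:147012901-147013000, plus strand: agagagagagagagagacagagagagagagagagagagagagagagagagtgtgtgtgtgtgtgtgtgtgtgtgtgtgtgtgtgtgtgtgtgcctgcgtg
BCL9, chr1:147017001-147017100, plus strand: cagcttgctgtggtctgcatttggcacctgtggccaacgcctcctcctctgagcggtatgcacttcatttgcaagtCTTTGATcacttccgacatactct
The KDM3B region of TCF7L1 shown next is the higher-scoring of the 2 called in both populations, lies in intron 4 and holds neither motif.
TCF7L1, chr2:85526001-85526100, plus strand: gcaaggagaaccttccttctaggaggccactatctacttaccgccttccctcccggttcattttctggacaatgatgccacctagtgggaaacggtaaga

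For H3K9me2, the region upstream of TCF7 that was called in both populations, the outer of 2 regions upstream of LEF1 and the region in coding exon 3 of PYGO2 are shown. They are rich in G and C, with 66% at TCF7, 72% at LEF1 and 68% at PYGO2, and hold 10, 12 and 3 CpG dinucleotides.
TCF7, chr5:133449301-133449400, plus strand: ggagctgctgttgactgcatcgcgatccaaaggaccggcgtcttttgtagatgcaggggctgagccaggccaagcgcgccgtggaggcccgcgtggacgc
LEF1, chr4:109094101-109094200, minus strand: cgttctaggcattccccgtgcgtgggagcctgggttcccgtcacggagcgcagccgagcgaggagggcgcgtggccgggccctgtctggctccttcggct
PYGO2, chr1:154932101-154932200, minus strand: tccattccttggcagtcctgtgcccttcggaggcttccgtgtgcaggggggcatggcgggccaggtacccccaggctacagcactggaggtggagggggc

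KDM3B in HCT116/Scrsh lay at both adaptors of the complex and at all of its DNA-binding partners but LEF1, and at neither β-catenin nor the PYGO genes. A KDM3B region fell in the window of 5 of the 9 genes (TCF7, TCF7L1, TCF7L2, BCL9 and BCL9L), where 35.0% of all protein-coding genes had one (Wilson 95% confidence interval 34.3 to 35.6%, which covers counting error only). In HCT116/ABsh-1 it fell in the window of 2 genes (TCF7L1 and BCL9L), against 19.2% of protein-coding genes. Thus 3 genes (TCF7, TCF7L2 and BCL9) had a KDM3B region in their window in HCT116/Scrsh only, against 20.0% of protein-coding genes, and 2 had one in both populations, against 15.0%. In the gene bodies, KDM3B lay at the same 5 genes in HCT116/Scrsh (34.3% of protein-coding genes) and at 4 in HCT116/ABsh-1 (TCF7L1, TCF7L2, LEF1 and BCL9L; 19.1%). With 9 genes, each gene is 11.1% of the group, and the windows of the 9 genes had a median of 31000 bases against 19311 for protein-coding genes, so a count over them is not a like-for-like match to the background. With regions of at least 200 bp the window count in HCT116/Scrsh was 2 in place of 5, since at TCF7, TCF7L1 and BCL9 every region was a single window of 100 bp, and with the KDM3B lists at equal length it was 3.

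H3K9me2 had 3 regions at the 9 genes in HCT116/Scrsh and was called at most of them in HCT116/ABsh-1. In HCT116/Scrsh only TCF7 had a region in its window, against 10.2% of protein-coding genes, while HCT116/ABsh-1 had 7 such genes (all but CTNNB1 and BCL9L), against 49.2%. For 6 of them (TCF7L1, TCF7L2, LEF1, BCL9, PYGO1 and PYGO2) the window had a region in HCT116/ABsh-1 only, which held for 40.2% of protein-coding genes. In the gene bodies H3K9me2 lay at 2 genes in HCT116/Scrsh (BCL9 and BCL9L; 15.9% of protein-coding genes) and at 8 in HCT116/ABsh-1 (all but CTNNB1; 51.2%). A KDM3B region in HCT116/Scrsh and an H3K9me2 region in HCT116/ABsh-1 occurred together in the window of 4 genes (TCF7, TCF7L1, TCF7L2 and BCL9), against 18.7% of protein-coding genes. When the H3K9me2 list of HCT116/ABsh-1 was shortened to the 11645 regions with the highest score, the number in HCT116/Scrsh, the window count fell from 7 to 3 genes and the body count from 8 to 2.

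**Figure D1:**
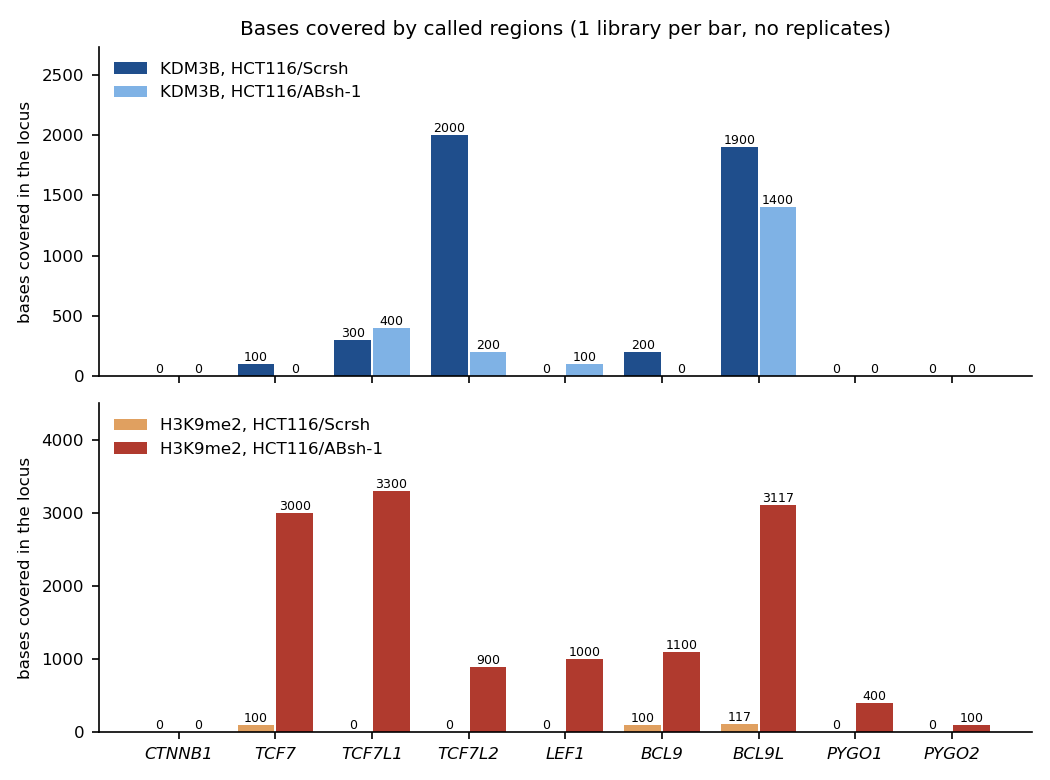
Bases covered by called regions in the locus of each of the 9 genes (y axis, bases), for KDM3B above and H3K9me2 below, with 1 bar per library and no error bars because there were no replicates. KDM3B cover was highest at TCF7L2 (2000 bases) and BCL9L (1900 bases) in HCT116/Scrsh, and H3K9me2 cover in HCT116/ABsh-1 was highest at TCF7L1 (3300 bases), BCL9L (3117 bases) and TCF7 (3000 bases).

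The plot of covered bases shows how unevenly the 9 genes shared these regions. KDM3B regions covered 4500 bases of the 9 loci in HCT116/Scrsh, in 21 regions, and TCF7L2 and BCL9L held 2000 and 1900 of these bases. In HCT116/ABsh-1 they covered 2100 bases in 8 regions, of which BCL9L held 1400. Per kb of locus, KDM3B covered 5.37 bases in HCT116/Scrsh compared with 2.51 in HCT116/ABsh-1, where the loci of all protein-coding genes together gave 1.81 and 0.723. H3K9me2 covered 317 bases in 3 regions in HCT116/Scrsh and 12917 bases in 47 regions in HCT116/ABsh-1. This is 0.379 and 15.4 bases per kb, and the loci of all protein-coding genes gave 0.666 and 15.6, so the H3K9me2 cover of the 9 genes in HCT116/ABsh-1 was close to that of protein-coding genes in general.

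CTNNB1 (chromosome 3, 41236232 to 41301587, plus strand) had no region of any list in its window or body, the only one of the 9 genes without, whereas 24.8% of protein-coding genes had none. Its locus of 70.4 kb has 15 exons in the canonical transcript, and its window had a GC content of 38.5%, the lowest of the 9. The nearest KDM3B region lay 5113 bp beyond the edge of the locus in HCT116/Scrsh and 608931 bp beyond it in HCT116/ABsh-1. The nearest H3K9me2 region lay 21831 bp beyond the edge in HCT116/Scrsh and 8813 bp in HCT116/ABsh-1. The gene that encodes the signal carrier of the pathway was thus without a called region of either antibody with and without KDM3A/B depletion, at the depth of these libraries.

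TCF7L2 (chromosome 10, 114710006 to 114927437, plus strand) had the most KDM3B regions of the 9 genes, with 9 in HCT116/Scrsh compared with 1 in HCT116/ABsh-1. Of the 9 regions, 3 lay at the start of the gene. A 100-bp region from 114710001 covered the TSS and the untranslated start of exon 1 (score 26, percentile 54.7), and regions of 200 bp at 1794 bp (score 54, percentile 81.1) and of 100 bp at 3244 bp (score 16, percentile 31.5) followed in intron 3. Positions are given as the distance of the centre from the TSS of the canonical transcript, negative upstream. None of these 3 was called in HCT116/ABsh-1. All 3 also lie within 5 kb of a TSS of a long noncoding RNA gene, so their assignment to TCF7L2 is not unique. A 100-bp region lay at 23744 bp in intron 4 (score 12, percentile 17.5).

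The other 5 KDM3B regions of TCF7L2 lay in intron 5, between 119444 and 143394 bp from the TSS and more than 5 kb from any annotated TSS. Of these, 3 were wide and had high scores: 400 bp from 114833301 to 114833700 (score 148, percentile 98.8), 500 bp from 114846901 to 114847400 (score 146, percentile 98.8) and 400 bp from 114853201 to 114853600 (score 118, percentile 97.2). The remaining 2, of 100 bp at 119444 and 121544 bp, had scores of 22 and 18. In HCT116/ABsh-1 the only KDM3B region at TCF7L2 was 200 bp wide, from 114847101 to 114847300, inside the 500-bp region, with a score of 37 (percentile 80.0). The KDM3B cover of the locus was therefore 2000 bases in HCT116/Scrsh compared with 200 in HCT116/ABsh-1, and the strongest regions were intronic and away from the promoter.

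Among the 21 KDM3B regions of the 9 genes in HCT116/Scrsh, 3 hold the TCF/LEF core and 3 the AP-1 motif, the latter all wide regions of intron 5 of TCF7L2. The TCF/LEF core is in 2 of the 11 regions of 100 bp and 0 of the 5 of 200 bp. It is in 1 of the 2 of 400 bp and 0 of the 2 of 500 bp. Of all KDM3B regions of these 4 widths in HCT116/Scrsh, 6.5%, 12.4%, 20.3% and 21.4% hold it. The AP-1 motif is in 0 of the 11 regions of 100 bp and 0 of the 5 of 200 bp. It is in 2 of the 2 of 400 bp and 1 of the 2 of 500 bp. Of all KDM3B regions of these 4 widths, 6.94%, 12%, 19.4% and 19.8% hold it. The region of 600 bp, at BCL9L, holds neither motif.

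H3K9me2 had no region at TCF7L2 in HCT116/Scrsh, while 7 regions covered 900 bases in HCT116/ABsh-1. Of the 7, 6 were a single window of 100 bp with scores between 14 and 29. They lay in intron 4 (4 regions), near the end of intron 5 and in coding exon 6, the latter from 114900901 to 114901000. The widest, 300 bp from 114828701 to 114829000 (score 67, percentile 75.8), ended 400 bp before the KDM3B region at 119444 bp. Among the 8 genes with any H3K9me2 in HCT116/ABsh-1, TCF7L2 had the least in proportion to its length, with 4.05 bases per kb of its 222-kb locus. With the lists at equal numbers of regions it had no H3K9me2 region.

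**Figure D2:**
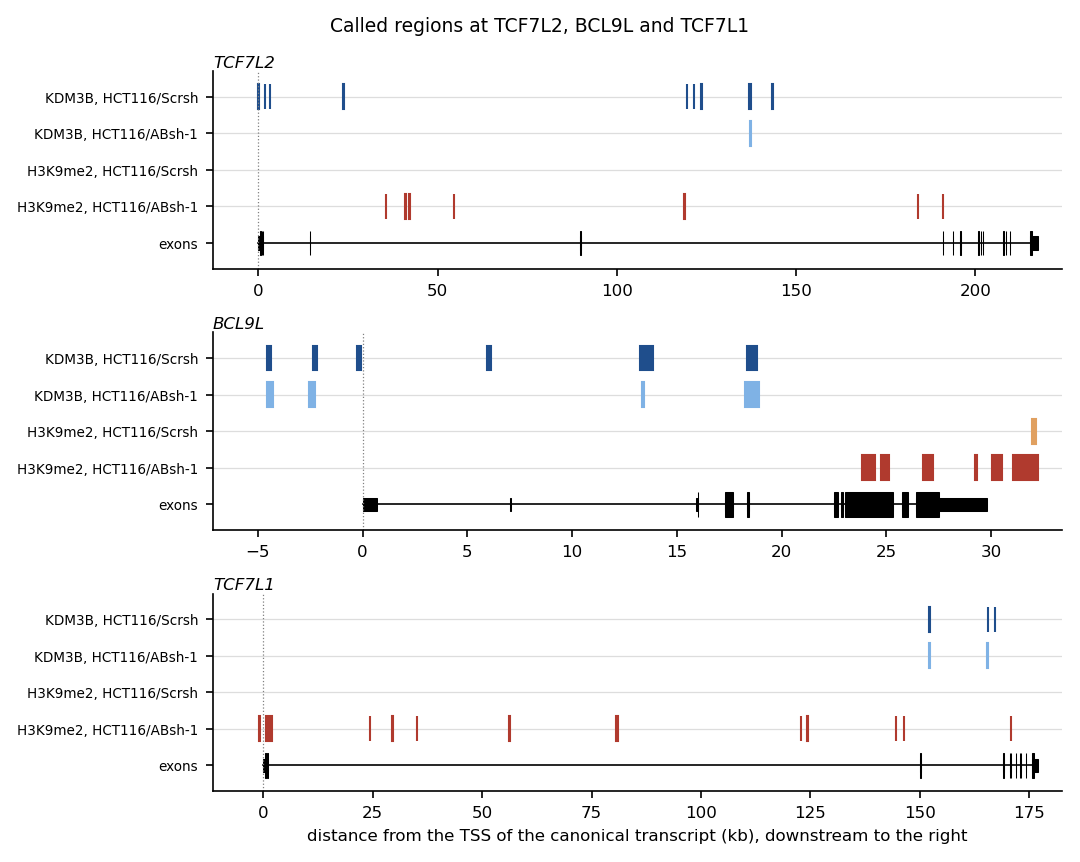
Called regions at TCF7L2, BCL9L and TCF7L1 by list, against the distance from the TSS of the canonical transcript (x axis, kb, downstream to the right), with the exons of that transcript below (taller boxes are coding). At TCF7L2 the 3 widest KDM3B regions of HCT116/Scrsh sit in intron 5 between 123494 and 143394 bp, at BCL9L the H3K9me2 regions lie downstream of all KDM3B regions, the last of which is centred at 18584 bp, and at TCF7L1 the widest H3K9me2 region follows the TSS.

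TCF7L1 (chromosome 2, 85360515 to 85537510, plus strand), whose product acts mainly as a repressor in stem cells, had 3 KDM3B regions in HCT116/Scrsh compared with 2 in HCT116/ABsh-1, all in intron 4. Regions of 100 bp at 85512701 (score 19) and 85526001 (score 30) were each called again in HCT116/ABsh-1 as 200 bp, with scores of 31 and 34. The other KDM3B region of TCF7L1, 100 bp at 85527601 (score 23), was called in HCT116/Scrsh only. This region and that at 85526001 also lie within 5 kb of a TSS of a microRNA gene. TCF7L1 was with LEF1 one of the 2 genes with more KDM3B cover in HCT116/ABsh-1 than in HCT116/Scrsh, at 400 against 300 bases.

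No H3K9me2 region was called at TCF7L1 in HCT116/Scrsh, and 12 were called in HCT116/ABsh-1, covering 3300 bases, the most of the 9 genes. The widest spanned 1300 bp from 85361201 to 85362500, over coding exon 3 and the edge of coding exon 2, with a score of 229 (percentile 97.0) and 96 CpG dinucleotides. A 100-bp region lay at -865 bp, and 9 others lay in intron 3, the widest of these being 500 bp at 80735 bp (score 102), which is 504 bp from the TSS of another transcript. A region of 100 bp covered the start of coding exon 7 (score 13). H3K9me2 covered 6.46% of the window of TCF7L1, a share at percentile 83.2 among protein-coding genes. With equal numbers of regions, 1300 bases remained.

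TCF7 (chromosome 5, 133450372 to 133487556, plus strand), which encodes TCF-1 and is itself a Wnt target, was the only gene of the 9 with H3K9me2 in its window in both populations. In HCT116/Scrsh the region was 100 bp wide, from 133449301 to 133449400, with a score of 13 (percentile 54.4). In HCT116/ABsh-1 a region of 700 bp from 133449101 to 133449800 enclosed it, with a score of 209 (percentile 96.3) and 47 CpG dinucleotides. Another 9 regions followed in HCT116/ABsh-1 over the first part of the gene, the nearest across coding exon 3 (200 bp, score 55) and the others in intron 3 up to 15378 bp. Together they covered 3000 bases, 71.1 per kb of locus, and 8.0% of the window, at percentile 86.0 among protein-coding genes.

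KDM3B at TCF7 was limited to a 100-bp region in intron 9, from 133481701 to 133481800, with a score of 15 (percentile 28.1). It was called in HCT116/Scrsh and not in HCT116/ABsh-1, and it lay 15900 bp from the nearest H3K9me2 region of HCT116/ABsh-1. At TCF7 the KDM3B region thus lay near the end of the gene, and the H3K9me2 regions lay upstream and in its first part. The presence of a KDM3B region in HCT116/Scrsh only with H3K9me2 in both populations was shared by 281 protein-coding genes (1.39%), TCF7 included. The limit of 5 kb falls among the TCF7 regions, since the 600-bp H3K9me2 region from 133463901 is centred 4891 bp from a TSS and counts for the window, and the 100-bp region from 133465701 is centred 6441 bp from one and counts for the body only.

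LEF1 (chromosome 4, 108968701 to 109090112, minus strand), which encodes a TCF/LEF protein of lymphocytes and many cancers, had no region of either antibody in HCT116/Scrsh. In HCT116/ABsh-1 it had 1 KDM3B region of 100 bp in intron 11 (108981401 to 108981500, score 16, percentile 47.7). Of the 8 KDM3B regions of HCT116/ABsh-1 at the 9 genes, it was the only one without an overlap in HCT116/Scrsh. H3K9me2 had 3 regions in HCT116/ABsh-1, covering 1000 bases. The highest score was that of a 500-bp region at -2863 bp (109092701 to 109093200, score 114, percentile 88.3), followed by a 400-bp region in intron 6 (score 57) and the 100-bp region at -4063 bp (score 23). Both upstream regions also lie in the body of the antisense gene LEF1-AS1, so their assignment to LEF1 is not unique.

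**Figure D3:**
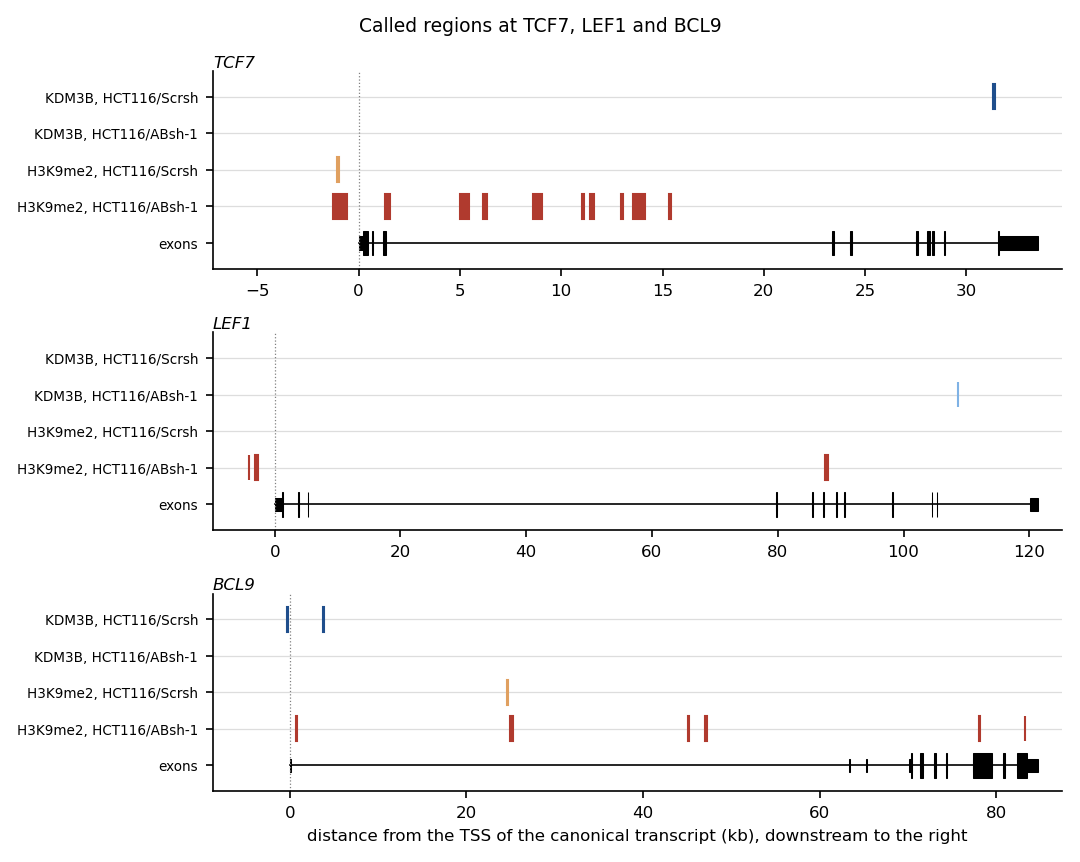
Called regions at TCF7, LEF1 and BCL9 by list, against the distance from the TSS of the canonical transcript (x axis, kb, downstream to the right), with the exons of that transcript below (taller boxes are coding). At TCF7 the last of the 10 H3K9me2 regions of HCT116/ABsh-1 is centred 15378 bp into the gene. At LEF1 2 of the 3 such regions lie upstream, and at BCL9 the 6 are spread over the gene.

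BCL9L (chromosome 11, 118764584 to 118796635, minus strand), an adaptor that binds β-catenin directly, had the highest density of KDM3B cover of the 9 genes, with 1900 bases in HCT116/Scrsh and 1400 bases in HCT116/ABsh-1, and 4 of its 6 regions of HCT116/Scrsh were overlapped in HCT116/ABsh-1. A region from 118777801 to 118778300 (500 bp), over coding exon 5 and intron 5, had a score of 251 (percentile 99.8) in HCT116/Scrsh. It was enclosed in HCT116/ABsh-1 by a region of 700 bp with a score of 255 (percentile 99.6). In intron 2 a 600-bp region (118782801 to 118783400, score 87, percentile 93.3) was called in HCT116/Scrsh, and 100 bp of it with a score of 13 in HCT116/ABsh-1. These regions of exon 5 and intron 2 also lie within 5 kb of a TSS of the microRNA gene MIR4492. Upstream of the gene, regions at -2266 bp (score 64) and -4466 bp (score 72) in HCT116/Scrsh were met by regions at -2416 bp (score 55) and -4416 bp (score 37) in HCT116/ABsh-1.

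At BCL9L, 2 of the 6 KDM3B regions of HCT116/Scrsh were not called in HCT116/ABsh-1. They were the 200-bp region just upstream of the TSS, at -166 bp (118796701 to 118796900, score 25), and a 200-bp region of intron 1 at 6034 bp (score 36), which lies in the body and outside the window. KDM3B covered 7.4% of the window in HCT116/Scrsh compared with 6.09% in HCT116/ABsh-1, at percentiles 99.5 and 99.9 among protein-coding genes. The regions upstream of BCL9L also overlap the body of UPK2, a gene of the urothelium, so their assignment to BCL9L is not unique.

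Within the locus, H3K9me2 at BCL9L lay downstream of the KDM3B regions, the nearest 5000 bp from that of exon 5 and intron 5. In HCT116/ABsh-1, 6 regions covered 3117 bases, at 84.1 per kb the highest density of the 9 genes, and all lay more than 5 kb from an annotated TSS, so BCL9L had none in its window. The widest ran for 1200 bp from 118764401 to 118765600 (score 218, percentile 96.6), beyond the end of the canonical transcript, and it contained the only H3K9me2 region of BCL9L in HCT116/Scrsh (118764501 to 118764700, score 19). Coding exon 8 held regions of 400 bp and 600 bp (scores 50 and 78), and exon 10 held one of 500 bp in its coding part (score 93) and one of 100 bp in its untranslated part (score 18). The 3 regions nearest the end of the gene and that of HCT116/Scrsh also lie in the body of CXCR5, which encodes a chemokine receptor of B cells and overlaps the end of BCL9L.

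BCL9 (chromosome 1, 147013271 to 147098017, plus strand), the paralogue of BCL9L, differed from it in both antibodies. Its 2 KDM3B regions in HCT116/Scrsh were single windows of 100 bp with scores of 11 (at -321 bp, percentile 13.9) and 10 (at 3779 bp in intron 1, percentile 10.1), the lowest of the 21 KDM3B regions of the 9 genes in that list, and neither was called in HCT116/ABsh-1. H3K9me2 had 1 region of 100 bp in intron 1 in HCT116/Scrsh (147037901 to 147038000, score 12) and 6 regions covering 1100 bases in HCT116/ABsh-1. Of these, only the 200-bp region at 729 bp (score 47) lay in the window. A 300-bp region (147038201 to 147038500, score 42) lay 200 bp from the region of HCT116/Scrsh without overlapping it, and coding exons 8 and 10 held 1 region each. The pattern of TCF7L2 and BCL9 in their windows, KDM3B in HCT116/Scrsh only and H3K9me2 in HCT116/ABsh-1 only, was that of 1724 protein-coding genes (8.55%).

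PYGO1 and PYGO2, which encode the readers that complete the chain from β-catenin to histone H3, had no KDM3B region in either population and no H3K9me2 region in HCT116/Scrsh. PYGO1 (chromosome 15, 55831082 to 55881145, minus strand) had 2 H3K9me2 regions in HCT116/ABsh-1. The 300-bp region from 55881001 to 55881300 (score 48, percentile 65.3) is centred at -608 bp from the canonical TSS. Its centre is 5 bp from another annotated TSS of PYGO1. It also lies in the body of a long noncoding RNA gene, so its assignment to PYGO1 is not unique. The 100-bp region of intron 1 had a score of 11 (percentile 7.37). PYGO2 (chromosome 1, 154929502 to 154936329, minus strand), the more widely expressed of the pair, had 1 region of 100 bp in coding exon 3 (154932101 to 154932200, score 16, percentile 27.3). This region is also within 5 kb of a TSS of PBXIP1, the neighbouring gene. With LEF1, the PYGO genes shared the pattern of H3K9me2 in HCT116/ABsh-1 and nothing else in the window, which 4514 protein-coding genes (22.4%) had. With equal numbers of regions, the H3K9me2 difference was 0 bases at both PYGO genes.

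**Figure D4:**
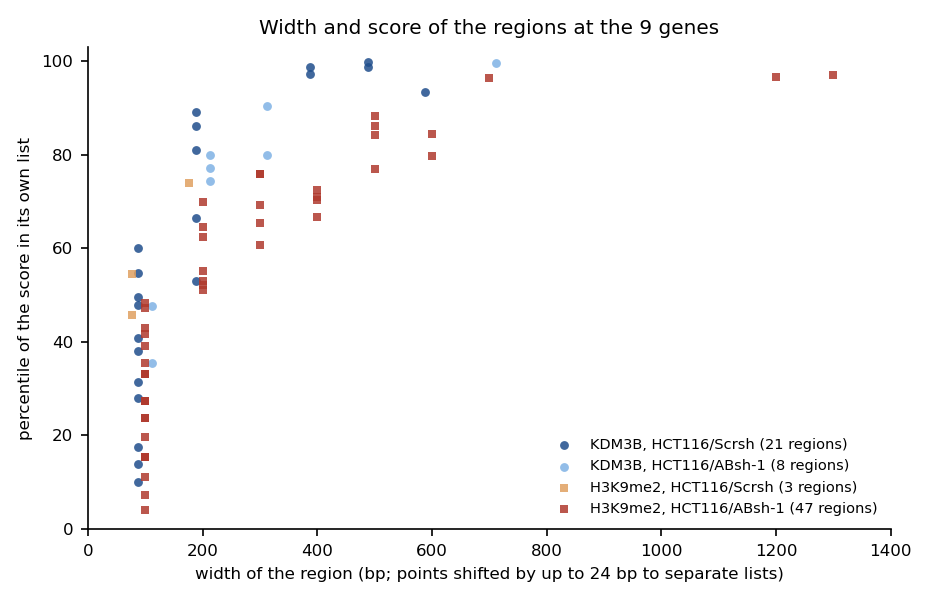
Width of each region at the 9 genes (x axis, bp) against the percentile of its score within its own list (y axis), 1 point per region, for the 4 lists. The percentile rose with width over most of the range, the KDM3B regions of 400 to 700 bp lie at percentiles of 93.3 or more, and the widest H3K9me2 region spans 1300 bp.

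Across the 9 genes, most KDM3B regions of the depleted cells overlapped one of the control cells by at least 1 bp, and some extended beyond it. Of the 21 KDM3B regions in HCT116/Scrsh, 7 (33.3%) overlapped one of HCT116/ABsh-1, against 25.7% of the whole list, and of the 8 in HCT116/ABsh-1, 7 (87.5%) overlapped one of HCT116/Scrsh, against 56.4%. No KDM3B region of HCT116/Scrsh at these genes overlapped an H3K9me2 region of HCT116/ABsh-1 (0 of 21; 0.533% of the whole list did). With fewer than 5000 bases to an H3K9me2 region of HCT116/ABsh-1 there were 8 of the 21 (38.1%), against 33.4% of the list, and 1 more, of BCL9L, lay at 5000 bases. The gap was between 400 and 35400 bp with a median of 5800 bp. The plot of width against score shows that 11 of the 21 KDM3B regions in HCT116/Scrsh were single windows, none of them above percentile 60.1, and that those of 400 bp or more were near the top of their list.

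By place in the canonical transcript, 16 of the 21 KDM3B regions of HCT116/Scrsh touched an intron, 5 lay wholly or partly upstream, and 1 each touched a coding exon (BCL9L) and an untranslated exon (TCF7L2). The H3K9me2 regions of HCT116/ABsh-1 touched a coding exon in 10 of 47 cases, while 33 touched an intron, 5 lay upstream and 1 touched an untranslated exon. Their median GC content was 61.9%, close to the 62.4% of the whole list, and that of the KDM3B regions of HCT116/Scrsh was 56.5% against 53.5%. The windows of protein-coding genes had a median GC content of 45.6%. The part of GC content in the calls was not tested. In the 300-bp promoters of the 9 genes, from 250 bp before to 50 bp after the canonical TSS, the TCF/LEF core was found at TCF7 only (1 of 9; 10.6% of promoters) and the AP-1 motif at none (0 of 9; 5.44%).

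The other nuclear and cytoplasmic genes of the pathway were taken from a list of 60, grouped by role. Of 28 coactivators and adaptors, 19 had a KDM3B region in their window in HCT116/Scrsh compared with 9 in HCT116/ABsh-1, and 4 and 16 had an H3K9me2 region. Of 20 corepressors and antagonists, 10 and 3 had KDM3B and 2 and 16 had H3K9me2. Of 12 genes that control β-catenin in the cytoplasm, 9 and 4 had KDM3B and 0 and 7 had H3K9me2. In all, 63.3% of the 60 genes had KDM3B in HCT116/Scrsh and 65.0% had H3K9me2 in HCT116/ABsh-1. The shares were 55.6% and 77.8% for the 9 genes of the complex and 35.0% and 49.2% for protein-coding genes. For KDM3B in HCT116/ABsh-1 and H3K9me2 in HCT116/Scrsh, 26.7% and 10% of the 60 genes had a region. Of protein-coding genes, 19.2% and 10.2% did. Their windows are shorter (median 19311 bases) than those of the list (30800). By role the medians were 49500 bases for coactivators and adaptors, 30400 for corepressors and antagonists and 29000 for the cytoplasmic genes.

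**Figure D5:**
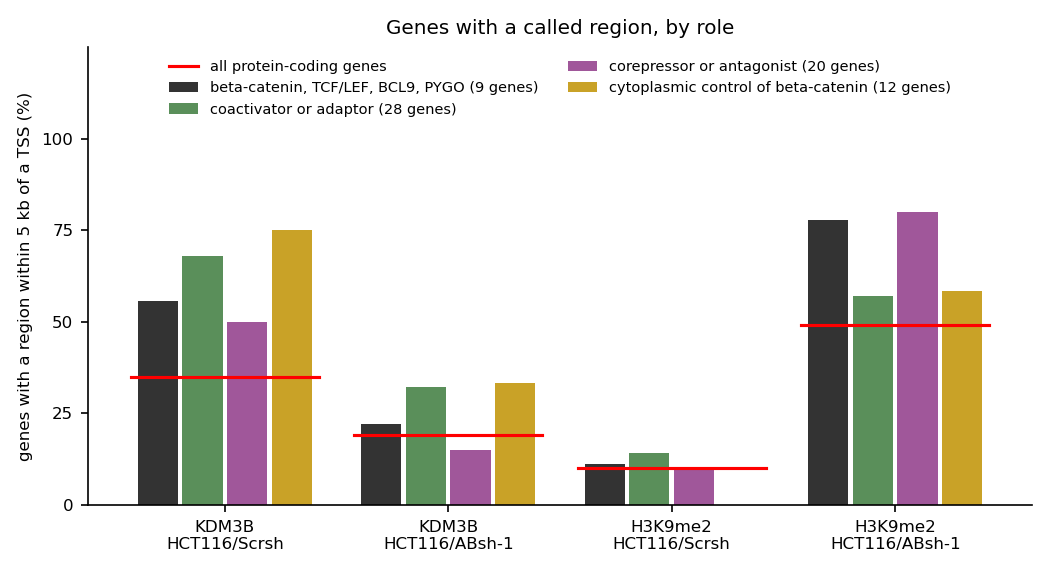
Share of genes with a called region within 5 kb of a TSS (y axis, percent) by list, for the 9 genes of the complex and for the 3 roles of the other pathway genes, with red lines for all protein-coding genes. In HCT116/Scrsh KDM3B was found at 55.6% of the 9 genes and 75.0% of the 12 cytoplasmic genes, and in HCT116/ABsh-1 H3K9me2 was found at 77.8% of the 9 genes and 80.0% of the 20 corepressors or antagonists.

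Counted in the windows alone, KDM3B in HCT116/Scrsh covered most bases among the coactivators at ARID1A (900) and ARID1B (700), subunits of the SWI/SNF chromatin remodeller, and at RUNX1 (600), a transcription factor gene, where 100, 0 and 100 bases were covered in HCT116/ABsh-1. H3K9me2 in HCT116/ABsh-1 covered most at SMARCA4 (4900), the ATPase of that remodeller, and at SSBP3 (3900) and SSBP4 (3700), whose products bind the adaptor LDB1, and none of these 3 had any in its window in HCT116/Scrsh. Among the antagonists KDM3B covered most at CTNNBIP1 (700), which blocks the binding of β-catenin to TCF, at CHD8 (600), a chromatin remodeller that binds β-catenin, and at HBP1 (500), a repressor. H3K9me2 covered most at the corepressors CTBP2 (6204) and TLE2 (5274) and at SOX7 (3300). In the cytoplasmic group the kinase genes GSK3A (600) and CSNK1D (500) and the APC paralogue APC2 (300) led for KDM3B, and APC2 (3200), CSNK1E (2600) and CSNK1D (1412) for H3K9me2. BCL9L, with 1700 KDM3B bases in its window in HCT116/Scrsh, had more than any of these genes. TCF7 and TCF7L1, with 2709 and 2000 H3K9me2 bases in HCT116/ABsh-1, had fewer than the leading coactivators and corepressors. These ranks are by bases and not by share of the window. The windows of the named pathway genes ran from 10001 bases (SOX7) to 129759 (ARID1B), with 24412 at SSBP4 and 87804 at SMARCA4.

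The name TCF4 belongs to another gene, on chromosome 18, which encodes a basic helix-loop-helix factor and shares only the protein name TCF-4 with TCF7L2. It had 1 H3K9me2 region in its window and 1 KDM3B region in its body, each of 100 bp and each in HCT116/ABsh-1. Above, TCF4 is counted among the protein-coding genes of the background but not among the 9 genes or the list of 60.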

How the data were processed

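KDM3B and H3K9me2 ChIP-seq lists of HCT116/Scrsh and HCT116/ABsh-1 were used, with 1 library for each antibody and population. The authors mapped reads to hg19 with Bowtie, which the submitters' processing notes also name, kept uniquely placed reads without positional duplicates, and compared 100-bp windows by a Poisson test of ChIP against input. The lists deposited by the authors give each region's position and a score, a whole number whose meaning is not given in the sources used here, so that it served only to rank regions within a list. Many regions are a single window, although the study's methods ask for neighbouring windows. The 2 inputs and the depth of the libraries were not analysed here.

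Regions were joined to GENCODE release 44 on hg19 by an overlap of at least 1 bp with the window or body of a gene. A gene was named if it was 1 of the 9, or if it was among the 3 genes of its role in the list of 60 pathway genes with the most bases covered by KDM3B in HCT116/Scrsh or by H3K9me2 in HCT116/ABsh-1, and TCF4 was added for its name. Some neighbouring genes were also named, where a region of the 9 genes overlapped their body or lay within 5 kb of their TSS. The 9 genes and the list were chosen with earlier results of these data known. The background was the 20163 protein-coding genes, with Wilson 95% intervals for counting error. The region lookup was tested on simulated data for 400 genes and gave 0 wrong answers. Alternatives were the better-scoring 50% of a list, regions of at least 200 bp, lists of equal length for an antibody, windows of 2 kb, canonical transcripts, region centres, windows alone, all annotated genes as background, and other rules of overlap. Sequences and motifs were read from the hg19 genome. The sequence of 1 region of TCF7L2 is not reported here. Calculations used Python 3.11.15, numpy 2.4.6, pandas 2.3.3 and scipy 1.17.1, and figures matplotlib 3.10.9.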

Additional observations from a re-analysis of the deposited data

How the results depend on the processing

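All values come from single libraries of unknown depth, and many calls rest on a single 100-bp window, so filters that remove such windows lower the counts by construction. In HCT116/Scrsh, the number of the 9 genes with KDM3B in the window went from 5 to 3 with the 50% of regions with the highest score, 2 with regions of at least 200 bp, 3 with equal numbers of regions, 3 with windows of 2 kb and 3 with the canonical transcript only. The body count of KDM3B in HCT116/Scrsh went from 5 to 3, 2 and 3 under the same filters of score, width and equal numbers. In HCT116/ABsh-1, the window count of KDM3B went from 2 to 1 with windows of 2 kb and to 1 with the canonical transcript. The KDM3B cover in HCT116/Scrsh went from 4500 to 2600 bases when the gene bodies were left out, and the number of KDM3B regions overlapping between populations from 7 to 4 with regions of at least 200 bp.

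For H3K9me2 in HCT116/Scrsh, the filters of score and width took the window count from 1 to 0, the body count from 2 to 1 and the cover from 317 to 117 bases, and leaving out the bodies gave 100 bases. For H3K9me2 in HCT116/ABsh-1, equal numbers of regions took the window count from 7 to 3, the body count from 8 to 2 and the cover from 12917 to 3517 bases, and leaving out the bodies gave 6509 bases. The H3K9me2 difference at BCL9, HCT116/ABsh-1 minus HCT116/Scrsh, turned from 1000 to -100 bases with equal numbers of regions, because no H3K9me2 region of HCT116/ABsh-1 was left there. Of the differences in cover at single genes, 11 moved by more than 1.5 times, 1 turned and 6 did not under equal numbers of regions. Under each of the filters of score and width, 6 moved. The unmoved ones include both differences at CTNNB1 and the KDM3B differences at PYGO1 and PYGO2. These were 0 bases at the outset, with no region to remove, so they could not move. The others unmoved under equal numbers were for KDM3B, at TCF7L2 (-1800 to -1300 bases) and LEF1 (100 bases in both). With all annotated genes as the background, its share with a region was 18.3% and 9.87% for KDM3B and 7.09% and 31.6% for H3K9me2 in HCT116/Scrsh and HCT116/ABsh-1. Taking region centres changed none of the 8 counts it was applied to. No paired analysis was possible because there was 1 library per condition.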
